A study of Mus musculus with 4 samples.

Results

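The matrix metalloproteinases, the ADAMTS proteases and the tissue inhibitors of metalloproteinases are described here in growth plate chondrocytes with and without deletion of the cilium gene Ift88. Members were defined by gene symbol: every probe set whose single gene symbol was Mmp, Adamts or Timp followed by a number. This gave 70 of 45037 probe sets and 37 of 18193 genes. There were 18 Mmp genes with 29 probe sets, 15 Adamts genes with 28 and 4 Timp genes with 13. A probe set is a group of short probes that measures 1 transcript region, and 19 of the 37 genes had several. The rule uses the symbol and no measured value, but it was chosen with earlier results of these data known.

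The cells, chondrocytes from the zone of the growth plate in which they divide, had been cut with a needle from 40 µm sections of the hindlimb (proximal tibia and distal femur) at postnatal day 7. RNA of 4 samples, each hybridised to 1 Affymetrix mouse array, was available: 2 labelled Control, of wild-type genotype, and 2 labelled Cilia-deleted, of genotype Col2aCre;Ift88fl/fl, all on a C57BL/6 background. The study compares cartilage with and without the primary cilium. In the deleted group Cre comes from a Col2a driver, which is active in chondrocytes of all zones and not in the dividing zone alone, and Ift88 is a subunit of the transport machinery that builds the cilium. The labels call the samples biological replicates and give no sex, litter or number of animals per sample, so the errors below measure only the spread between these arrays.

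Matrix metalloproteinases are zinc-dependent enzymes, secreted or held at the cell surface, that are made as inactive proenzymes and cut collagens, proteoglycans and other matrix proteins once activated. ADAMTS enzymes are secreted relatives that cut aggrecan and versican, trim procollagens or act on other matrix glycoproteins. The Timp proteins block metalloproteinases by binding the active site. In the growth plate, Mmp13 from late hypertrophic chondrocytes and osteoblasts and Mmp9 from osteoclasts and other cells at the vascular front are known for removing cartilage where it is replaced by bone.

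All values are log2, and each probe set's median over the 4 arrays was set to 0, so they give differences between arrays and no expression level. Ift88 itself differed by 0.08 (SE 0.166), with array values of 0.07 and -0.08 in Control and 0.22 and -0.07 in Cilia-deleted. The part of the gene that the probe set covers was not related to the deleted part, so this value does not check the deletion. Xist, the RNA of the inactive X chromosome, was lower in both Cilia-deleted arrays by log2 differences of -6.46 to -7.91, and the Y-linked Eif2s3y was higher by 6.59 in 1 of its probe sets. A difference of sex, as these genes show it, and a difference of genotype cannot be told apart in any result given here. Of the 14 cartilage markers, all had a probe set in the brightest of 3 signal classes, which are coarse and were read from the rounding of the values. The SD of the array values was 0.289 in Control 1 and 0.173 to 0.223 in the other 3.

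None of the 70 member probe sets passed an adjusted p of 0.05 in limma, while 20 of all 45037 probe sets did (0.0444%), 10 of them higher (0.0222%) and 10 lower (0.0222%). An unadjusted p under 0.05 was reached by 9 members, 12.9% of them, against 6.17% of all probe sets. They belong to Adamts6, Mmp2, Mmp16, Mmp14, Adamts5 and Timp3. The groups did not overlap in 23 members, which is 32.9% and close to the 33.6% over all probe sets. With a difference of at least 0.5 in addition, 8 members remained, 4 higher (2.45% of all) and 4 lower (2.97%). That is 11.4% of the members against 5.42% of all probe sets, and whether the share stands apart was not tested. With 2 arrays against 2, the smallest p of a two-sided exact permutation test is 0.333, so single members rest on the fit that pools the spread over all probe sets.

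The median difference over the 70 members was 0.04, beside 0.002 over all probe sets, and 39 members lay above 0 where 50.5% of all probe sets did. The medians of the Mmp, Adamts and Timp probe sets were 0.06, 0.06 and -0.02. All 4 arrays lay within 0.5 of each other in 37 members. Sorted by the largest gap between neighbouring arrays, 7 members had the gap between the groups (10%, against 8.9% of all probe sets). In 22 the gap set 1 array above the rest (31.4% against 36.5%), and in 32 it set 1 array below (45.7% against 37.6%). The array that stood low was Control 1 in 17 members (24.3% against 17%) and Cilia-deleted 2 in 10 (14.3% against 8.1%). In all but 13 members the arrays of 1 group differed at least as much as the group means.

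**Figure D1:**
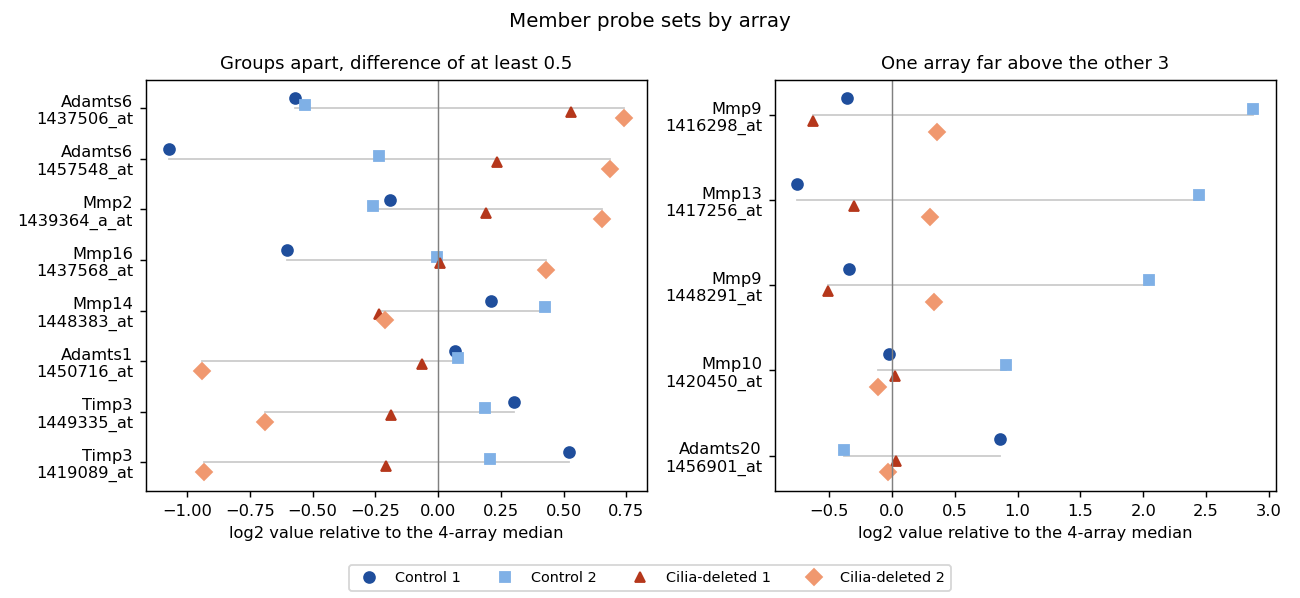
Log2 value relative to the 4-array median (x axis) for single member probe sets (y axis), with 1 point per array and grey lines from the lowest to the highest array. Left, the 8 probe sets whose groups do not overlap and differ by at least 0.5; right, 5 probe sets with 1 array apart, among which Mmp9 and Mmp13 reach 2.04 to 2.88 in Control 2 and Adamts20 0.86 in Control 1.

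The collagenases cut the triple helix of fibrillar collagens, and Mmp13 is the one known for type II collagen of cartilage. Its probe set (1417256_at) read -0.75 in Control 1, 2.45 in Control 2, -0.30 in Cilia-deleted 1 and 0.30 in Cilia-deleted 2. Control 2 stood alone, 2.15 above the next array, and Control 1 was the lowest of the 4. The group difference was -0.85 (SE 0.995, adjusted p = 0.979) with all arrays, 0.75 without Control 2 and -2.45 without Control 1, so its sign depended on 1 array. Mmp8, the collagenase of neutrophils, lay at -0.46, 0.07, -0.07 and 0.28 in the same order, with overlapping groups. Mmp1a and Mmp1b, the mouse relatives of interstitial collagenase, had all values between -0.10 and 0.11.

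The gelatinases Mmp2 and Mmp9 cut denatured collagen and type IV collagen, and they behaved differently over the arrays. Both probe sets of Mmp2 had groups that did not overlap. One (1439364_a_at) read -0.19 and -0.26 in the Control arrays against 0.19 and 0.65 in the Cilia-deleted arrays. The other (1416136_at) read -0.17 and -0.18 against 0.17 and 0.31. In each, both Cilia-deleted arrays lay above both Control arrays, with Cilia-deleted 2 the highest. The differences were 0.65 (SE 0.195, adjusted p = 0.708) and 0.41 (SE 0.141, adjusted p = 0.756), and neither passed. Leaving out 1 array at a time gave 0.42 to 0.88 and 0.34 to 0.48.

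Mmp9 had its high value in a single Control array. The probe set 1416298_at read -0.36 in Control 1, 2.88 in Control 2, -0.63 in Cilia-deleted 1 and 0.36 in Cilia-deleted 2, and 1448291_at read -0.34, 2.04, -0.51 and 0.34. In both, Control 2 was far above the rest, and Cilia-deleted 2 came next and Cilia-deleted 1 was lowest, the same order of those 3 arrays in each. The differences were -1.39 (95% interval -3.98 to 1.20, adjusted p = 0.928) and -0.94 (SE 0.777, adjusted p = 0.943). Without Control 2 they became 0.22 and 0.25.

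The stand-out of Control 2 in Mmp9 and Mmp13 was rare on these arrays. Some array stood at least 1 log2 unit above the next in 222 of 45037 probe sets (0.493%). In Control 2 this held for 50 of 45037 probe sets (0.111%), of which 3 were members: both of Mmp9 and that of Mmp13. At least 2 above were 7 probe sets (0.0155%), of which 2 were members. Ranked by this gap, the Mmp9 probe sets were in places 4 and 16 and Mmp13 in place 5. Mmp10 was in place 60 with a gap of 0.89. No member stood at least 1 above the next in Control 1 (0.229% of all), in Cilia-deleted 1 (0.0688%) or in Cilia-deleted 2 (0.0844%), and none stood at least 1 below (0.224%).

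**Figure D2:**
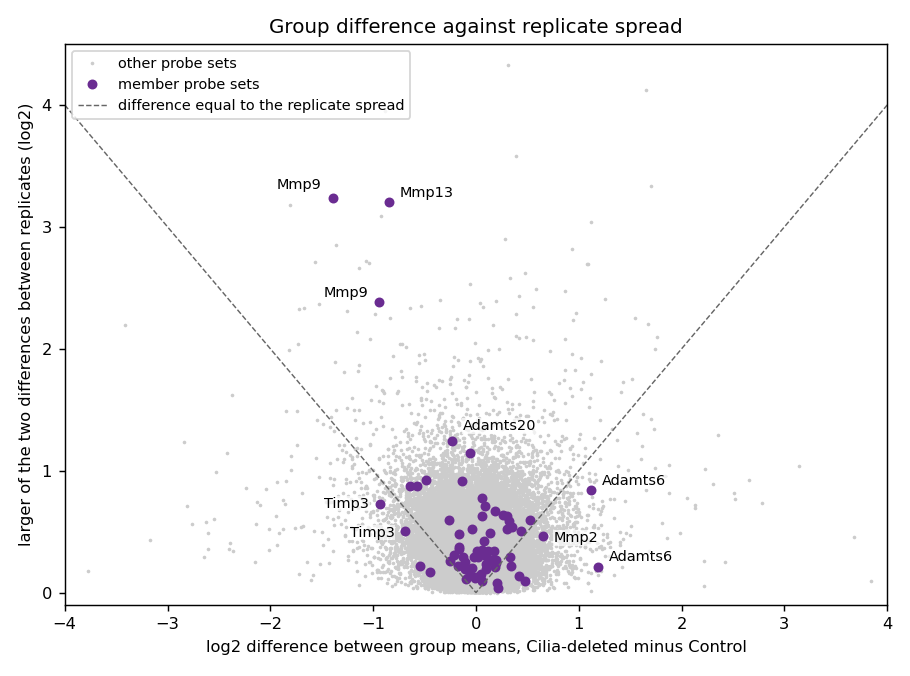
Log2 difference between group means, Cilia-deleted minus Control (x axis), against the larger of the differences between arrays of 1 group (y axis), for 70 member probe sets (purple) and all others (grey). Adamts6 lies below the dashed line of equal difference and spread, and Mmp9 and Mmp13 lie far above it; 11 other probe sets fall outside the axes and 13 members lie below the line.

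The genes that shared this array were named after their values were seen. Above the Mmp9 probe set 1416298_at in the ranking were Prg4, the lubricin of the joint surface (7.51 above the next array), Egr1, an immediate early transcription factor (2.71), and Abi3bp, a matrix-binding protein (2.68). Hemgn, a gene of red cell precursors, and Itih5, a hyaluronan-binding matrix protein, followed Mmp13 with 2.09 and 2.02.

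Marker lists of other cell types were read in the same arrays, and no marker in them passed the threshold. Of 10 osteoclast markers, 7 were highest in Control 2, with list medians of -0.14, 0.17, -0.18 and 0.11 in Control 1, Control 2, Cilia-deleted 1 and Cilia-deleted 2. Acp5, the tartrate-resistant acid phosphatase of osteoclasts, read -0.65, 1.83, -2.20 and 0.65. Ctsk, their collagen-cutting cathepsin, read -0.21, 1.56, -0.30 and 0.21, so these genes and Mmp9 had Control 2 highest and Cilia-deleted 2 next. The other defining genes of the list, such as Dcstamp (0.31 in Control 2) and Calcr (0.03), reached less.

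Of 10 neutrophil markers, 8 were highest in Control 2, with medians of -0.26, 0.50, -0.25 and 0.27. S100a8 read 1.60 and S100a9 1.34 in that array. The other neutrophil markers reached at most 0.84 there (Mpo), and Ltf read only 0.14. Lcn2 (-0.004) and Chil3 (0.21) were instead highest in Cilia-deleted 2, at 0.34 and 0.42. The 4 measured red cell markers had medians of -0.17, 0.36, -0.07 and 0.06, and all 4 were highest in Control 2. Of 8 articular surface markers 5 were highest there, of 9 endothelial markers 6, of 10 skeletal muscle markers 6, of 6 osteoblast markers 3 and of 11 perichondrium and fibroblast markers 4. Of 14 cartilage markers 1 was highest there, of 10 macrophage markers 2, and of 7 hypertrophic zone markers 1. That 1 was Ibsp, the bone sialoprotein gene of late hypertrophic cells and osteoblasts, which read -0.61, 1.30, 0.61 and -1.08, while Col10a1, the collagen of hypertrophic cells, read 0.17 in Control 2. Over all genes this share was 27.5%, and the shares were not tested. The cartilage, macrophage, perichondrium, hypertrophic zone and osteoblast lists had their highest median in Cilia-deleted 1. In RNA of a whole tissue piece, more cells of a type and more RNA per cell cannot be told apart, and the part of these cells in the Mmp9 and Mmp13 values was not tested.

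**Figure D3:**
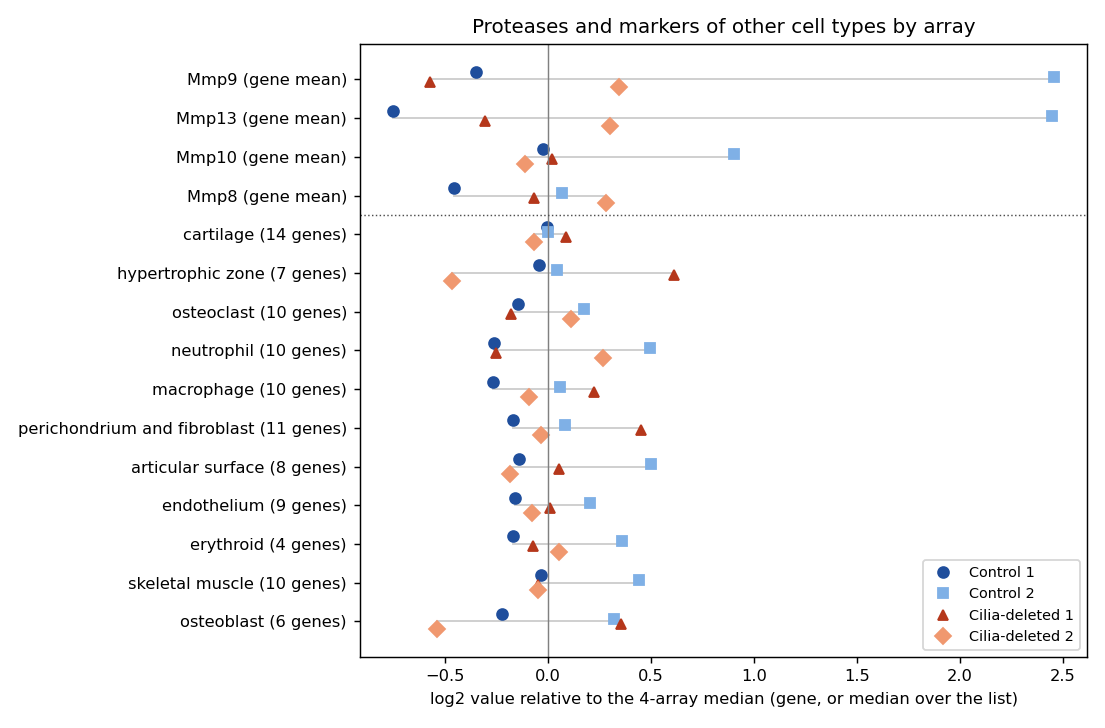
Log2 value relative to the 4-array median (x axis) in each of the 4 arrays. Rows (y axis) are the gene means of Mmp9, Mmp13, Mmp10 and Mmp8, then the median over each marker list. Control 2 is highest for the neutrophil list (0.50), the articular surface list (0.50) and the skeletal muscle list (0.44), and Cilia-deleted 1 for the perichondrium list (0.45) and the hypertrophic zone list (0.61).

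The stromelysins have a wide range of matrix substrates. Mmp3, stromelysin-1, read -0.12 and -0.09 in Control against 0.13 and 0.09 in Cilia-deleted. Its groups did not overlap, and the gap between them was the largest of its gaps, with a difference of 0.22 (SE 0.135, adjusted p = 0.904). Mmp10, stromelysin-2, read -0.02, 0.91, 0.02 and -0.11, with Control 2 alone high. Its difference of -0.49 (SE 0.314) was -0.024 without that array. Mmp11 lay between -0.15 and 0.08. Of the small or elastin-cutting enzymes, Mmp7 (matrilysin) read at most 0.31, in Control 2, and Mmp12 (the macrophage elastase) at least -0.26, in Control 1.

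Mmp13 and Mmp10 lie in 1 cluster on chromosome 9, in which the RefSeq table places 10 Mmp genes. Of these, 9 had a probe set here, in the order Mmp13, Mmp12, Mmp1b, Mmp3, Mmp1a, Mmp10, Mmp8, Mmp20 and Mmp7. The 7 others had all array values between -0.46 and 0.31 and group differences between -0.17 and 0.30, and Control 2 was the highest array in 4 of the 9. A high Control 2 value was thus not shared along the cluster. The levels of these genes were lost with the centring. Mmp13 was in the brightest of the 3 signal classes, Mmp10 in the middle class, and Mmp3, Mmp1a, Mmp1b and Mmp12 in the dimmest.

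**Figure D4:**
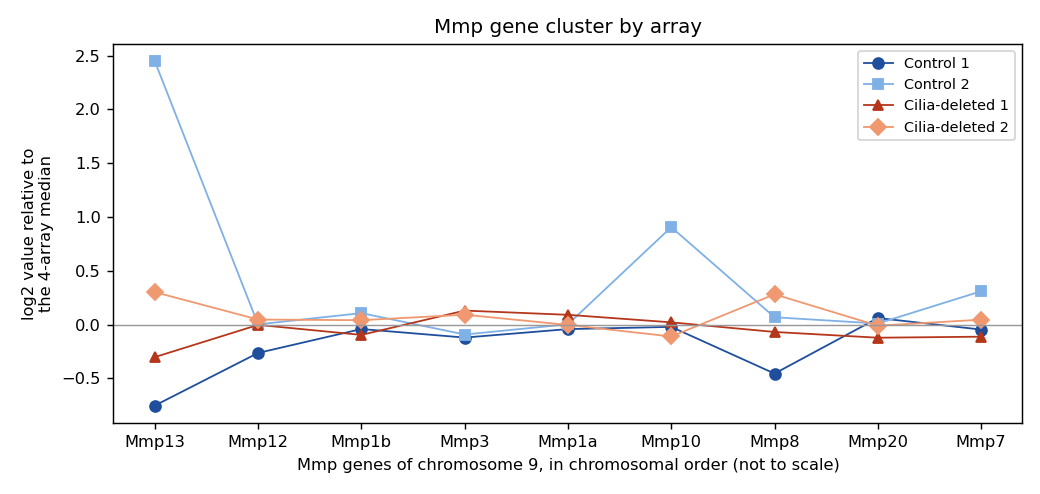
Log2 value relative to the 4-array median (y axis) in each array for the 9 measured genes of the chromosome 9 cluster, in chromosome order (x axis, not to scale). Mmp13 reaches 2.45 and Mmp10 0.91 in Control 2, and the other 7 genes stay between -0.46 and 0.31 in all arrays.

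Promoter sequence is shown for 4 cluster genes, since Mmp13 and Mmp10 were high in Control 2 while their neighbours Mmp3 and Mmp8 were not, and Mmp13, Mmp10 and Mmp3 carry the same motif. The 150 bases before each start site are given from RefSeq (GRCm38.p6, 5′ to 3′ on the plus strand, along which these 4 genes run). They come from chr9:7272364-7272513 for Mmp13, chr9:7502192-7502341 for Mmp10, chr9:7445672-7445821 for Mmp3 and chr9:7558279-7558428 for Mmp8. Capitals mark the binding motif of AP-1 (TGANTCA), the Fos and Jun dimer, and that of Runx factors (TGTGGT, here as its reverse complement), both searched on either strand.
Mmp13: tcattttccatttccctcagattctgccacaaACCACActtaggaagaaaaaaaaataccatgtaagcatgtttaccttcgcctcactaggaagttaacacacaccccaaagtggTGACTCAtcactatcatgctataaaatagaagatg
Mmp10: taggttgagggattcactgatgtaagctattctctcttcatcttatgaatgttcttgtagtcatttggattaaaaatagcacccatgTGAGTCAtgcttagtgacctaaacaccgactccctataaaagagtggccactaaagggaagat
Mmp3: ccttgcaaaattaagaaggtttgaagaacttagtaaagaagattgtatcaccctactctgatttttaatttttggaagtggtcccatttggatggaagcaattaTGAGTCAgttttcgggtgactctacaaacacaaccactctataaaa
Mmp8: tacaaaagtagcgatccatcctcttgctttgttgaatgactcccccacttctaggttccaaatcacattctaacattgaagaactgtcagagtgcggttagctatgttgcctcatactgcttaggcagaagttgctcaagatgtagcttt

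The AP-1 letters begin 35 bases before the start of Mmp13, 63 before that of Mmp10 and 46 before that of Mmp3, and the Runx letters begin 118 bases before that of Mmp13. Of the 37 member genes, 23 had a promoter that was searched. Mmp9, Mmp2, Mmp16 and Adamts6 had none, so nothing is known here of the motif in them. The AP-1 motif was in 8 of the 9 measured cluster genes and in 0 of the 14 other member genes, Timp1, Timp2, Timp3, Timp4 and Mmp14 among them. Of 32851 promoter windows of the same length it was in 4.24%, and the Runx motif was in 8.4%. The member counts are by gene, with the motif in any window of the gene, and are not shares of windows. Mmp12 and Mmp7 each had a further window without the AP-1 motif. A match is a run of letters and says nothing of binding in these cells. The genes of AP-1 itself were mixed: Fos was high in Control 2 alone (-0.12, 1.12, -0.07 and 0.07), and Fosb less so (0.67 in Control 2). Jun (-0.21 in Control 2), Junb (-0.02) and Jund (-0.02) were not high there.

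The membrane-type metalloproteinases act at the cell surface. Mmp14, known to activate the Mmp2 proenzyme and to cut collagen in skeletal tissue, had 3 probe sets with differences below 0. The probe set 1448383_at read 0.21 and 0.43 in Control against -0.23 and -0.21 in Cilia-deleted. Both Cilia-deleted arrays lay close together and below both Control arrays, with a difference of -0.54 (SE 0.149, adjusted p = 0.685). The other probe sets had differences of -0.25 (1416572_at), with groups just apart, and -0.17 (1440920_at), with groups that overlapped.

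Mmp16, a relative of Mmp14, had 4 probe sets with differences above 0, of which 3 had groups that did not overlap. The probe set 1440161_at read -0.28 and -0.19 in Control against 0.19 and 0.29 in Cilia-deleted, a difference of 0.48 (SE 0.14, adjusted p = 0.699). The probe set 1437568_at read -0.60 and -0.01 against 0.01 and 0.43. Its groups touched between Control 2 and Cilia-deleted 1, and its difference of 0.52 ranged from 0.22 to 0.82 with 1 array left out. The other probe sets had differences of 0.20 (1422626_at) and 0.10 (1443412_s_at). Mmp2 and Mmp16 thus lay on the higher side in Cilia-deleted and Mmp14 on the lower side, with no call for any of them.

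Mmp17 and Mmp24 gave 4 probe sets with differences from -0.12 to 0.18. Of the remaining Mmp genes, Mmp23, an enzyme with its own membrane anchor, read 0.19, -0.19, 0.44 and -0.27 in 1 probe set (1417281_a_at) and -0.09, 0.09, 0.37 and -0.25 in the other. Cilia-deleted 1 was the highest and Cilia-deleted 2 the lowest array in both, so the arrays of 1 group took both ends of the range. The 2 differences were 0.09 and 0.06. Mmp19 and Mmp20, the enamel protease, had differences from -0.17 to 0.12.

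The ADAMTS enzymes that cut aggrecan and versican had a median difference of -0.003 over 13 probe sets of 7 genes, which ranged from -0.58 to 0.44. Groups did not overlap in 2 of the 13, both lower. Adamts5, the main aggrecanase of mouse cartilage in disease, read 0.17 and 0.34 against -0.21 and -0.17 in 1 probe set (1456404_at), a difference of -0.45 (SE 0.144, adjusted p = 0.734). Its 3 other probe sets had overlapping groups and differences of -0.04, 0.17 and -0.10, so the probe sets of this gene disagreed. Adamts4, the other classical aggrecanase, had differences of 0.30 and -0.003 with overlapping groups, and the first, with Control 1 at -0.61, was -0.015 without that array.

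Adamts1, a versican- and aggrecan-cutting enzyme, read 0.07, 0.08, -0.07 and -0.94. The groups did not overlap, but Cilia-deleted 2 alone was low, and the difference of -0.58 (SE 0.297, adjusted p = 0.866) was -0.14 without it. Adamts15 had a difference of 0.06 and Adamts8 of 0.10. Adamts20, known from pigment cell development, read 0.86 in Control 1, -0.38 in Control 2, 0.04 in Cilia-deleted 1 and -0.04 in Cilia-deleted 2, so that both ends of its range were Control arrays, and its difference of -0.24 was 0.39 without Control 1. The same held for 1 probe set of Adamts9 (1430352_at), at 0.63 in Control 1 and -0.51 in Control 2.

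**Figure D5:**
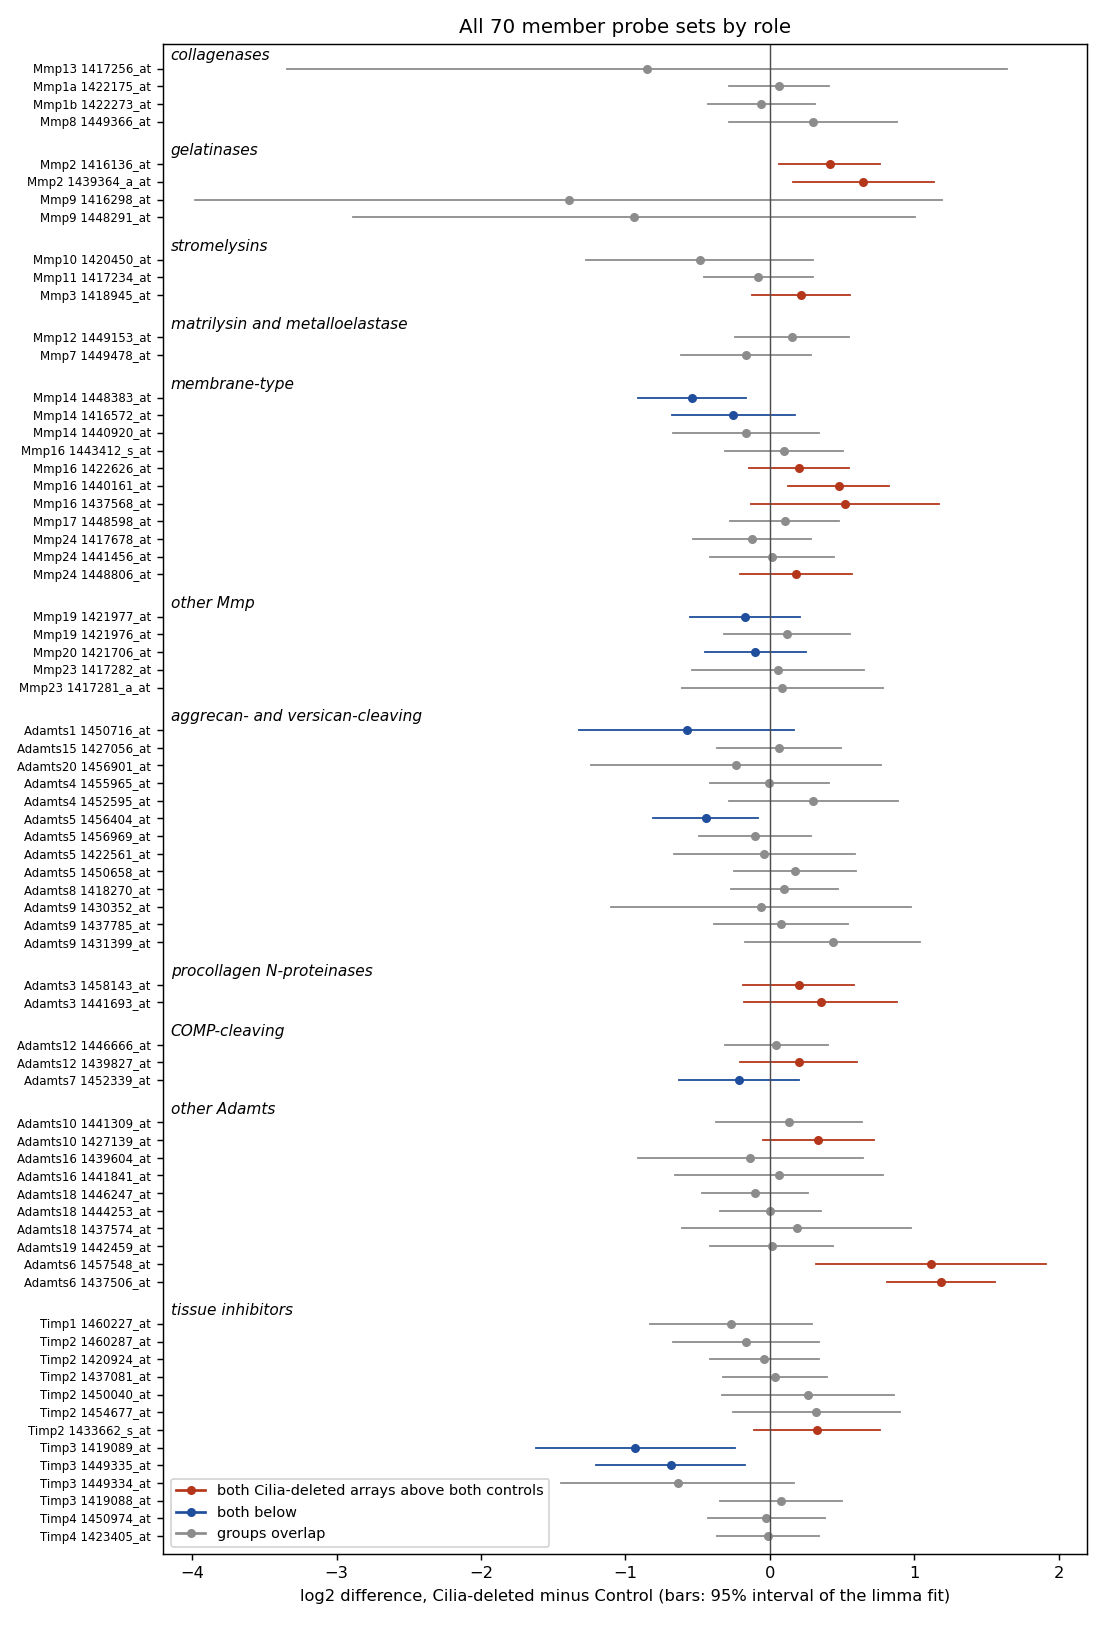
Log2 difference between group means, Cilia-deleted minus Control (x axis), for each of the 70 member probe sets, grouped by role (y axis); the markers show whether the groups overlap. Adamts6 has the highest differences (1.19 and 1.12), and Mmp9 the lowest (-1.39 and -0.94) with groups that overlap.

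Adamts3, a procollagen N-proteinase that trims type II procollagen, had both probe sets with groups apart and higher in Cilia-deleted. The probe set 1441693_at read -0.03, -0.07, 0.57 and 0.03, and 1458143_at read -0.27, -0.03, 0.07 and 0.03. Cilia-deleted 1 stood above the rest in the former, and Control 1 below the rest in the latter. The differences of 0.35 (SE 0.212) and 0.20 (SE 0.153) became 0.08 without Cilia-deleted 1 and 0.08 without Control 1. Adamts7 and Adamts12, which cut cartilage oligomeric matrix protein, had differences of -0.22 for Adamts7, and 0.20 and 0.05 for the probe sets of Adamts12. Control 1 stood apart in 2 of these 3, and without it Adamts7 was at -0.061 and the latter Adamts12 probe set at -0.032.

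Adamts6 had the largest difference of any member with groups apart, in both of its probe sets. It encodes a secreted protease closely related to Adamts10. The probe set 1437506_at read -0.57 and -0.53 in Control against 0.53 and 0.74 in Cilia-deleted, and 1457548_at read -1.07 and -0.24 against 0.24 and 0.69. In the former the arrays of each group lay within 0.21 of each other, while in the latter Control 1 was well below Control 2. The differences were 1.19 (95% interval 0.81 to 1.56, 2.27-fold higher, adjusted p = 0.25) and 1.12 (SE 0.318, 2.17-fold higher, adjusted p = 0.688). By unadjusted p the former was in place 61 of 45037. Over all probe sets 0.755% had groups apart and a difference of at least 1, and both members among them were those of Adamts6. With 1 array left out the differences ranged from 1.08 to 1.29 and from 0.70 to 1.54.

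The other genes of this class stayed nearer to 0. Adamts10, whose product binds fibrillin microfibrils, had differences of 0.34, with groups apart, and 0.13. Adamts16, Adamts18 and Adamts19 gave 6 probe sets with overlapping groups and differences from -0.14 to 0.19.

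Of the tissue inhibitors, Timp3 differed most. It is held in the matrix and blocks several ADAMTS and ADAM enzymes as well as the metalloproteinases. The probe set 1419089_at read 0.52 and 0.21 in Control against -0.21 and -0.93 in Cilia-deleted, and 1449335_at read 0.30 and 0.19 against -0.19 and -0.69. In both, all Control values lay above all Cilia-deleted values, and Cilia-deleted 2 was the lowest array by a wide margin. The differences were -0.93 (SE 0.274, 1.91-fold lower, adjusted p = 0.699) and -0.69 (SE 0.206, adjusted p = 0.708).

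Without Cilia-deleted 2 these became -0.57 and -0.43, and without Cilia-deleted 1 they became -1.29 and -0.94. The third probe set, 1449334_at, read 0.41 in Control 1 and -0.87 in Cilia-deleted 2 with the other arrays at the median, a difference of -0.64 with overlapping groups. The fourth, 1419088_at, had its lowest value in Control 1 (-0.24) and a difference of 0.08. So 3 of 4 Timp3 probe sets lay on the lower side, with Cilia-deleted 2 lowest in each of the 3, and 1 showed no such difference. Averaged over its probe sets Timp3 had a difference of -0.55 (adjusted p = 0.82).

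Timp1, an X-linked inhibitor of most metalloproteinases, was low in Cilia-deleted 2 alone (-0.56), and its difference of -0.27 was 0.03 without that array. Timp2, which takes part in the activation of Mmp2 by Mmp14, had 6 probe sets with differences from -0.16 to 0.33. In 1 of these (1433662_s_at) the groups did not overlap: -0.26 and -0.04 in Control against 0.33 and 0.04 in Cilia-deleted. Timp4 had differences of -0.01 and -0.02.

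Cilia-deleted 2 was the array that stood low in 10 members. These were all 3 of the lower Timp3 probe sets, 2 of Mmp14, and 1 each of Timp1, Adamts1, Adamts4, Adamts18 and Mmp19. No least gap was set, and this array lay 0.111 (Adamts4) to 0.875 (Adamts1) below the next. The same array had the lowest median for the hypertrophic zone markers (-0.46, against -0.04, 0.04 and 0.61 in Control 1, Control 2 and Cilia-deleted 1) and for the osteoblast markers (-0.54, against -0.22, 0.32 and 0.36). Both lists hold Sp7 and Ibsp. The cartilage markers had medians between -0.07 and 0.09, also lowest in Cilia-deleted 2. That array was lowest for the articular surface markers as well (-0.18, against -0.14 in Control 1). For the skeletal muscle markers it read -0.048, close to -0.045 in Cilia-deleted 1 and -0.033 in Control 1. The part of these other zones and cells in the low values was not tested.

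Cilia-deleted 1 was the array that stood high in 7 members: 2 probe sets of Timp2 and 1 each of Mmp23, Adamts3, Adamts12, Mmp16 and Mmp1a. That is 10%, against 4.7% of all probe sets. No least gap was set, and in these members the gap to the next ran from 0.088 (Mmp1a) to 0.54 (Adamts3) in Cilia-deleted 1. In this array the perichondrium and fibroblast markers had a median of 0.45, against -0.17, 0.08 and -0.03 in Control 1, Control 2 and Cilia-deleted 2. Of the 11 markers, 6 were highest there, among them Postn, the periosteal matrix protein periostin (3.47), and Aspn, the leucine-rich proteoglycan asporin (3.004). Dpt (-0.013), Fbln1 (-0.057), Tnmd (0.014) and Twist2 (0.017) were near the median in that array, and 4 of the 11 were highest in Control 2. The macrophage markers were also highest in Cilia-deleted 1 in 6 of 10, and the cartilage markers in 9 of 14. Their part in the member values was not tested.

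Some markers of another tissue also had groups apart, as probe sets of Adamts6, Mmp2, Mmp14 and Timp3 did. All 10 skeletal muscle markers had differences below 0, with a median of -0.30 and groups apart in 3. These 3 were Tnni2 (-1.96, adjusted p = 0.0673), Tnnc2 (-1.08, adjusted p = 0.161) and Mylpf (-1.05, adjusted p = 0.312), which code for proteins of the muscle filaments and were high in both Control arrays. The other muscle markers had overlapping groups and differences from -0.40 (Myh8) to -0.002 (Mb). Over all genes, 33.3% had groups apart, and the share of the list was not tested. Of the 6 osteoblast markers, 2 had groups apart: Dmp1, a matrix protein of bone cells (-0.72, adjusted p = 0.321), and Sp7 (-0.54). Ibsp and Col1a1 lay below 0 with overlapping groups, and Phex (0.055) and Ifitm5 (0.092) above 0 with overlapping groups. The part of muscle or bone cells in the member differences was not tested.

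Genes that act on or with the members were read as gene averages. None of their 4 lists had a member past an adjusted p of 0.05 in limma, and over all 18193 genes 2 passed. An unadjusted p under 0.05 was reached by 1 of the other inhibitors, 3 of the activators and other proteases, 2 of the substrates and 1 of the inducers, and by 1083 of all genes. Of 17 measured other protease inhibitors, 9 lay above 0 with a median of 0.02. A2m, the broad inhibitor alpha-2-macroglobulin, had the largest difference, 0.65 (adjusted p = 0.818), with groups that did not overlap. Cst3, the cysteine protease inhibitor cystatin C, had 0.40. Of 28 activators and other proteases, 18 lay above 0 with a median of 0.02. Bsg, the surface protein basigin that is known to induce metalloproteinases, read 0.29 and 0.22 in Control against -0.22 and -0.87 in Cilia-deleted (-0.80, adjusted p = 0.707). The serine protease Fap, at 0.94, had Control 1 at -2.06 and overlapping groups, and Htra1, at 0.68, had Cilia-deleted 1 alone at 1.12.

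Of 19 matrix substrates, 15 lay above 0 with a median of 0.13, beside -0.007 over all genes. Dcn, the small proteoglycan decorin, had a difference of 0.95 (adjusted p = 0.818) with Control 1 at -1.25, and Fn1, fibronectin, one of 0.86 with Cilia-deleted 1 at 1.20. Acan, the aggrecan that the aggrecanases cut, had 0.004 (SE 0.122), and Col2a1, the type II collagen of cartilage, 0.25 (SE 0.176). Of 24 measured factors and signals known to induce members, 14 lay above 0 with a median of 0.06. Sp7, a transcription factor of bone-forming cells, read 0.15 and 0.13 in Control against -0.13 and -0.69 in Cilia-deleted (-0.54, adjusted p = 0.82). Fos and Epas1, the hypoxia factor HIF-2α, followed with -0.50 and -0.38.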

How the data were processed

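The deposited table holds log2 values that the authors made with RMA, per the submitters' processing notes (no version given). The log base is not stated there and was inferred from the values. Each probe set's median over the 4 arrays was 0, within 5e-07. Of 45101 probe sets, 64 controls were left out. Of the other 45037, 34945 named 1 gene, 932 several and 9160 none, by the platform annotation, and 34741 matched RefSeq. Groups were compared per probe set with limma 3.58.1 (R 4.3.3; lmFit, eBayes without trend, two-sided), Cilia-deleted minus Control, with Benjamini-Hochberg adjustment over all 45037 and 2 residual degrees of freedom. The analysis was tested on simulated data. The number of arrays limits the precision.

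Members and lists were chosen with earlier results of these data known. Full values are given for probe sets whose groups do not overlap and whose group means differ by at least 0.5. They are also given for those with 1 array at least 1 from the next, and for fixed genes of each role. Mmp8, Mmp10, Adamts3, Adamts9 and Adamts20 lie outside this rule and were given array values after these were seen. In each list of other genes, at most 3 are named by size of difference. Acan, Col2a1, Fosb, Jun, Junb and Jund are named besides, outside that rule. Other settings were renewed quantile normalization, median subtraction, averages by gene, the dimmest class left out, the replicate number as a block, a threshold of 0.1, robust moderation or none, genes on X and Y left out, and each array left out. Deviations of same-numbered arrays from their group means correlated at 0.10 over the probe sets. With 2 arrays per group, both pairs give this same value, so it cannot decide whether the arrays are paired. The numbers were not taken to pair the arrays.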

Additional observations from a re-analysis of the deposited data

How the results depend on the processing

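The count of member probe sets past the threshold was 0 in every setting tried, and the adjusted p of the 40 probe sets that the naming rule picks ranged from 0.147 to 1. The count over all probe sets was 20, and became 2 without moderation, 2 by gene averages, 5 with the replicate block, 5 without genes on X and Y, and 9 to 12 with 1 array left out. The median difference over members ranged from -0.031 to 0.122 with 1 array left out (0.122 without Control 2, -0.031 without Control 1). Of 354 values of these 40 in settings with all arrays, 348 kept their direction. Direction could change only under renewed quantile normalization, median subtraction and gene averages. The other settings with all arrays change the error, the threshold or the probe sets tested, and leave each difference as it was. Adamts4 1455965_at became 0.040 under renewed quantile normalization. Gene averages, which join probe sets of opposite sign, gave Adamts4 0.148, Adamts5 -0.104, Timp2 0.125 and Timp3 -0.545, each against the sign of 1 probe set or, for Timp2, 2. Of their 160 values with 1 array left out, 29 in 21 probe sets changed sign, as did 22 of 120 values, in 16 probe sets, of the other 30 members. The cause was not tested. In the 21, the lowest and highest values were -3.01 to 0.224 and -2.129 to 0.251 (Mmp9), -2.448 to 0.752 (Mmp13), -0.563 to 0.03 (Timp1), -0.354 to 0.02 (Mmp14), -0.051 to 0.248 (Mmp16), -0.268 to 0.443 and -0.255 to 0.37 (Mmp23), -0.015 to 0.615 and -0.155 to 0.148 (Adamts4), -0.297 to 0.222 and -0.231 to 0.023 (Adamts5), -0.032 to 0.124 (Adamts12), -0.113 to 0.24 (Adamts15), -0.139 to 0.064, -0.033 to 0.104, -0.055 to 0.583 and -0.403 to 0.076 (Timp2), -0.088 to 0.244 (Timp3), and -0.073 to 0.045 and -0.168 to 0.12 (Timp4). In these fits the lone array of a group is assumed to vary like the other group. Signal over background was not measured.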
